A study of Mus musculus with 2 samples.

Results

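The guide strands of the miR-17-92 cluster and of its paralogous clusters, miR-106a-363 and miR-106b-25, were compared between lungs of untreated mice and lungs of mice given monocrotaline (MCT), a pyrrolizidine alkaloid that damages pulmonary endothelium and is given to rodents to model pulmonary arterial hypertension. The 10 guide strands were selected by their names on the array, without use of their values, from 1141 mouse miRNA probes. The series held 2 samples of total lung RNA, both labelled wild-type, each hybridised to a single-colour array with 3 repeat spots per miRNA. The untreated group was 1 sample, and the labels used here give no age for it. The MCT group was 1 sample from mice 14 weeks old with MCT given over 30 days. The labels do not say how many mice a sample came from, and miRNA levels alone give no measure of pulmonary pressure in the treated animals. Mice are known to respond less to MCT than rats.

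MicroRNAs are short RNAs that pair with messenger RNAs, mainly through their seed (bases 2 to 8), and lower the output of their targets. The miR-17-92 cluster is a polycistron that is induced by MYC and E2F factors in dividing cells, and it is required for normal lung growth in mouse embryos. Its members fall into seed families with separate targets: the miR-17 family acts on the cell cycle inhibitor Cdkn1a, the proapoptotic Bcl2l11 and the BMP receptor gene Bmpr2, and miR-92a on endothelial genes such as Klf2 and Itga5. All hairpins of a cluster are cut from a shared primary transcript, but their mature levels also depend on processing and turnover.

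The sequences are shown because probes for near-identical relatives can take up each other's targets. They are the target sequences in the deposited array tables, written 5′ to 3′ with the seed in capitals, and all 10 were the same as the RefSeq entries of that name (GRCm38.p6). The prefix mmu marks the mouse. miR-106a-5p and miR-92b-3p, which are not among the 10, are added as the detected relatives that share a seed.
mmu-miR-17-5p: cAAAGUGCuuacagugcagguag
mmu-miR-20a-5p: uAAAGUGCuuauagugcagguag
mmu-miR-20b-5p: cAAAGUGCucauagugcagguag
mmu-miR-106b-5p: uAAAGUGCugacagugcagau
mmu-miR-93-5p: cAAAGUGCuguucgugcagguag
mmu-miR-106a-5p: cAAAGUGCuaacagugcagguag
mmu-miR-18a-5p: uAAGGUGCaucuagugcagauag
mmu-miR-19a-3p: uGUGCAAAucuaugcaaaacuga
mmu-miR-19b-3p: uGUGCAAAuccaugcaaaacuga
mmu-miR-92a-3p: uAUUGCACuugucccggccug
mmu-miR-25-3p: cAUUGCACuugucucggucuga
mmu-miR-92b-3p: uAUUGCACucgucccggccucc

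The 10 guide strands carried 4 seeds. Counted from 1 at the 5′ end of miR-17-5p, miR-106a-5p differed from it by U10A alone, miR-20a-5p by C1U and C12U, and miR-20b-5p by U10C and C12U. miR-93-5p differed from miR-17-5p by U10G, A11U, C12U and A13C. miR-106b-5p is shorter, and over its 21 bases it differed by C1U, U10G and G20A. miR-19a-3p and miR-19b-3p differed by U11C. Counted along miR-92a-3p, miR-92b-3p differed by U10C and G21C and miR-25-3p by U1C, C14U and C18U. Cross-hybridization among the closest of these was not tested.

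The hairpins lie at 3 loci in RefSeq's GRCm38.p6. The miR-17-92 cluster has 6 hairpins within 836 bases (chr14:115043671-115044506, plus strand). The miR-106a-363 cluster has 6 hairpins within 875 bases (chrX:52741693-52742567, minus strand). The miR-106b-25 cluster has 3 hairpins within 498 bases (chr5:138165321-138165818, minus strand) and lies inside Mcm7, the gene of a subunit of the replicative helicase, on the basis of the RefSeq gene table. miR-19b-3p and miR-92a-3p have 2 genes each, in miR-17-92 and in miR-106a-363, with identical mature sequences, so their probes cannot tell the loci apart. miR-20b-5p is the listed guide strand that only miR-106a-363 encodes.

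The overall signal differed between the arrays and sets how single values can be read. Empty spots had a median intensity of 101 on the untreated array and of 253 on the MCT array, and a miRNA was called detected when at least 2 of its spots exceeded the 95th percentile of the empty spots, 116 and 284. By this rule 403 miRNAs were detected in untreated and 316 in MCT-treated lung, 409 in either and 310 in both. The lower count on the MCT array did not hold under another limit. When the dim miRNA spots set the limit, the untreated array had 362 detected miRNAs and the MCT array 366. The counts thus do not show that fewer miRNAs were present after MCT. Detection below refers to the empty spots unless stated otherwise. Among miRNA markers of the lung's cells, the endothelial miR-126-3p, the epithelial miR-200b-3p and miR-200c-3p and the smooth muscle miR-143-3p and miR-145-5p were detected on both arrays, miR-126-5p in untreated lung alone and the epithelial miR-141-3p in MCT-treated lung alone. Of 5 miRNAs of liver, brain and heart, 1 was detected in untreated lung (miR-122-5p, mean intensity 118) and 0 in MCT-treated lung. Of 6 blood-cell miRNAs, 3 were detected on both arrays and miR-144-3p, miR-142-3p and miR-142-5p on neither. The log2 ratios of MCT over untreated lung were -1.21 ± 0.21 for the myeloid miR-223-3p, -0.038 ± 0.035 for the erythroid miR-451a and 0.17 ± 0.077 for the lymphoid miR-150-5p. Those of the 3 epithelial miRNAs detected on both arrays lay between -0.039 and 0.46. Those of miR-143-3p and miR-145-5p were 0.33 ± 0.41 and 0.28 ± 0.053, and that of miR-126-3p was -0.12 ± 0.12. The values for miR-141-3p and miR-126-5p, 0.61 ± 0.14 and -0.29 ± 0.18, are not measurable ratios, because each was detected on a single array. The part of these markers in the values of the guide strands was not tested. miR-451a and miR-126-3p were very bright, with mean intensities of 31392 and 38626 on the untreated array. On the MCT array they had 39075 and 41990. The brightest spots of these arrays read 47014 and 53544. Whether ratios are compressed at such intensities was not tested. Each group had 1 array, so differences between the groups have no replicate check and were not tested. An error written with ± is the standard deviation of the 3 spots of a miRNA, combined over both arrays for a ratio as the root of the summed squares, and it leaves out any spread between animals.

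Of the 10 guide strands, 8 were detected on both arrays and 2, miR-18a-5p and miR-19a-3p, on neither. None of the 8 was 2-fold higher or lower in MCT-treated lung after quantile normalization, against 4.16% of the 409 detected miRNAs that were 2-fold higher and 2.20% that were 2-fold lower. At 1.5-fold the count of guide strands was also 0 in each direction, with 11.2% of all detected miRNAs higher and 10.8% lower. The log2 ratios of MCT over untreated lung lay between -0.046 and 0.32 with a median of -0.00065, and the median of all 409 was -0.044 with quartiles of -0.31 and 0.24. The median of the guide strands thus lay 0.044 above that of all 409, which include miRNAs detected on a single array. It lay under the median of 0.023 of the 310 miRNAs detected on both arrays, as the 8 guide strands were. The alternatives were compared with all detected miRNAs alone. There the guide strands' median lay 0.43 above without normalization, with 5S scaling and with each of the 3 centrings, which shift a whole array by 1 factor. With the GC trend removed the difference was -0.089. The spots of the arrays did not overlap for 3 of the 8, all higher in MCT-treated lung, when 33.0% of all detected miRNAs were higher and 36.7% lower without overlap. These 3 were miR-92a-3p, miR-93-5p and miR-17-5p. Under the 17 alternative settings their ratios lay above the median of all detected miRNAs in 17 for miR-92a-3p, 17 for miR-93-5p and 16 for miR-17-5p, and above 0 in 17, 15 and 14. For the distance from that median, the settings that shift a whole array by 1 factor give the same result and are not separate checks. In whole lung, a different number of cells of a type and a different amount of RNA per cell cannot be told apart.

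In the scanner values, before background correction, every spot of the 10 guide strands was brighter on the MCT array. After the median of the empty spots was subtracted, the 8 detected guide strands were 1.81-fold to 2.87-fold brighter there, with a median of 2.29-fold. The median over the 310 miRNAs detected on both arrays was 2.03-fold. The brighter spots were thus shared with most other miRNAs of the array, and the ratios that follow are relative to them. These folds depend on the value subtracted. The empty spots' median lay above that of the miRNA spots on the MCT array, 253 against 226. On the untreated array it lay under it, 101 against 105. The dim miR-19b-3p, at 1.81-fold, was 2.25-fold brighter before subtraction. The 310 were not matched to the guide strands for intensity, so 2.29-fold against 2.03-fold is not shown to be particular to them.

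**Figure D1:**
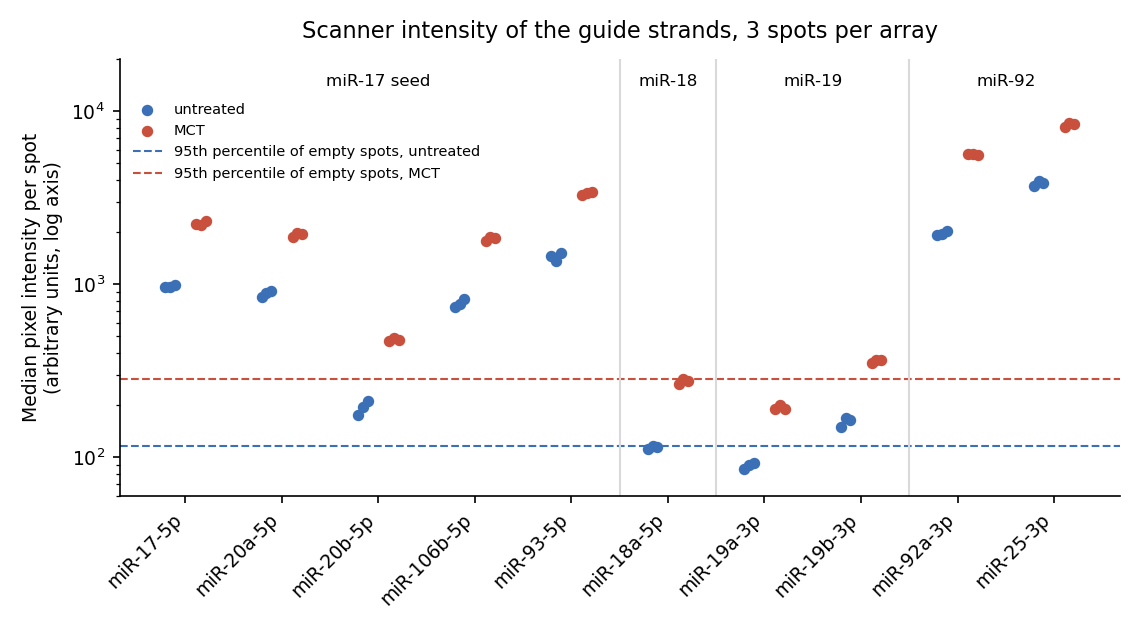
Median pixel intensity (log axis) of the 3 repeat spots of each guide strand on the untreated (blue) and the MCT array (red), grouped by seed, with the 95th percentile of each array's empty spots as dashed lines. The spots of miR-19a-3p lie under the line of their own array, those of miR-18a-5p near or under its array's line, and the MCT spots of every guide strand lie above its untreated spots.

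The miR-17 seed family was represented by 5 guide strands from all 3 clusters, and their ratios had a median of -0.0023. miR-17-5p, for which the family is named, read 971, 963 and 985 on the untreated array and 2221, 2205 and 2308 on the MCT array. The normalized log2 intensity was 10.42 ± 0.026 without and 10.54 ± 0.037 with MCT, a log2 ratio of 0.12 ± 0.046 (1.09-fold), and 144 of the 409 detected miRNAs had a higher ratio. Its spots did not overlap after normalization, but the difference was small beside the quartiles of all miRNAs.

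miR-20a-5p, the next hairpin of the same seed in miR-17-92, read 845, 887 and 913 on the untreated array and 1881, 1983 and 1963 on the MCT array. After normalization these were 10.30 ± 0.035 and 10.26 ± 0.063 on the log2 scale, a log2 ratio of -0.046 ± 0.072. The normalized spots of the arrays overlapped, so the difference was within the spread of the spots. miR-20b-5p, its X-linked counterpart, was dim, with 176, 195 and 212 against 471, 489 and 476. Its log2 ratio was -0.028 ± 0.22, again with overlapping spots. The wide error came from the untreated spots, whose level was 7.97 ± 0.22, against 7.94 ± 0.033 on the MCT array.

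The miR-106b-25 cluster added 2 guide strands of this seed, which share its Mcm7 intron with miR-25-3p and act on Cdkn1a as miR-17-5p does. miR-106b-5p read 741, 767 and 819 in untreated and 1770, 1881 and 1855 in MCT-treated lung. At log2 levels of 10.15 ± 0.070 and 10.15 ± 0.049, it had a log2 ratio of -0.0023 ± 0.086 with overlapping spots. miR-93-5p read 1463, 1365 and 1512 against 3273, 3368 and 3416. The log2 levels of 10.99 ± 0.12 and 11.13 ± 0.035 gave a log2 ratio of 0.14 ± 0.12. The spots of miR-93-5p did not overlap, and its ratio was close to the error of the spots. From the median of all detected miRNAs it lay above by 0.084 to 0.47 in the 17 alternatives.

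The miR-18 seed, which differs from the miR-17 seed within its core and is carried here by miR-18a-5p, gave no measurable level. miR-18a-5p read 113, 117 and 114 on the untreated array, where 1 of 3 spots exceeded the limit, and 267, 283 and 275 on the MCT array, where 0 of 3 did. The MCT array's empty spots were brighter than its median miRNA spot, 253 against 226. With limits taken from the dim miRNA spots instead, 123 and 257, all 3 spots of miR-18a-5p counted as detected on the MCT array and none on the untreated array. No fold is given, because miR-18a-5p was not detected on either array.

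The miR-19 seed was also dim. miR-19a-3p read 85.6, 90.3 and 93.0 in untreated and 190, 202 and 191 in MCT-treated lung, under the median of the empty spots on both arrays. miR-19b-3p read 149, 170 and 164 against 351, 368 and 367 and was detected on both. Both levels were 7.52 on the log2 scale, ± 0.18 and ± 0.051, a log2 ratio of 0.0010 ± 0.18 with overlapping spots. The GC content of the targets was 34.8% for miR-19a-3p and 39.1% for miR-19b-3p, the former the lowest of the 10. The part of base composition in their low signal was not tested.

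The miR-92 seed family held the highest and one of the lower ratios. miR-92a-3p, the last hairpin of miR-17-92 and an inhibitor of endothelial sprouting, read 1926, 1958 and 2025 on the untreated array and 5671, 5655 and 5549 on the MCT array. Its log2 level was 11.47 ± 0.032 without and 11.79 ± 0.015 with MCT, a log2 ratio of 0.32 ± 0.036 (1.25-fold) with spots that did not overlap. It was the highest ratio of the 8, short of 1.5-fold, and 84 of the 409 detected miRNAs had a higher one. In all 17 alternative settings it was the highest ratio of the 8, with a lowest value of 0.074. The order of the 8 cannot differ among the settings that shift a whole array, nor change with the detection rule. The 17 are thus not separate checks of it. Measured from the median of all detected miRNAs under the same setting, miR-92a-3p lay 0.36 above it as reported and 0.32 to 0.79 above it in the alternatives.

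miR-25-3p, of the same seed but from the miR-106b-25 cluster, read 3694, 3935 and 3825 on the untreated array and 8085, 8533 and 8430 on the MCT array. Levels of 12.46 ± 0.027 and 12.43 ± 0.050 gave a log2 ratio of -0.025 ± 0.057 with overlapping spots. The direction of miR-25-3p changed with the setting, and its ratio was 0.25 with cyclic loess and 0.41 with the authors' processed values. Of the 6 probes on the array with the miR-92 seed, 3 were detected, and the third was miR-92b-3p, from a locus of its own. miR-92b-3p read 1079, 1072 and 1100 against 3194, 3174 and 3215, and its log2 level was 10.56 ± 0.029 in untreated and 11.05 ± 0.015 in MCT-treated lung. Its log2 ratio was 0.49 ± 0.032 (1.41-fold), and 57 of the 409 had a higher one. The targets of miR-92b-3p and miR-92a-3p are rich in GC, 63.6% and 57.1%, and over all miRNAs detected on both arrays the median ratio was -0.33 for the 60 targets above 60% GC and 0.089 for the 196 between 40% and 60%. The target of miR-92a-3p lies in the latter range. The trend was removed with a smooth curve (lowess) over GC content, not by these ranges. With it removed the ratios were 0.84 for miR-92b-3p and 0.47 for miR-92a-3p.

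**Figure D2:**
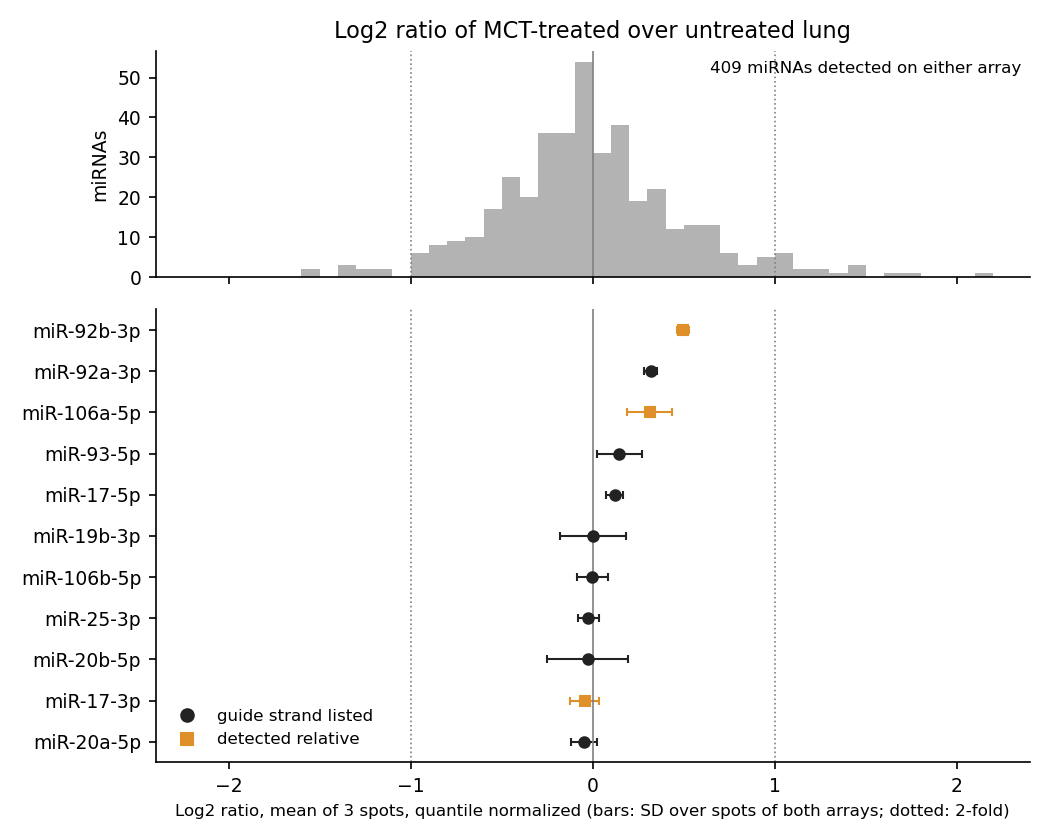
Upper panel, number of miRNAs (y axis) by log2 ratio of MCT-treated over untreated lung (x axis) for the 409 detected on either array. Lower panel, the log2 ratio with the SD over spots for the 8 detected guide strands (black) and the 3 relatives detected on both arrays (orange), all inside the dotted 2-fold lines, with miR-92b-3p at 0.49 and miR-92a-3p at 0.32 at the high end.

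**Figure D3:**
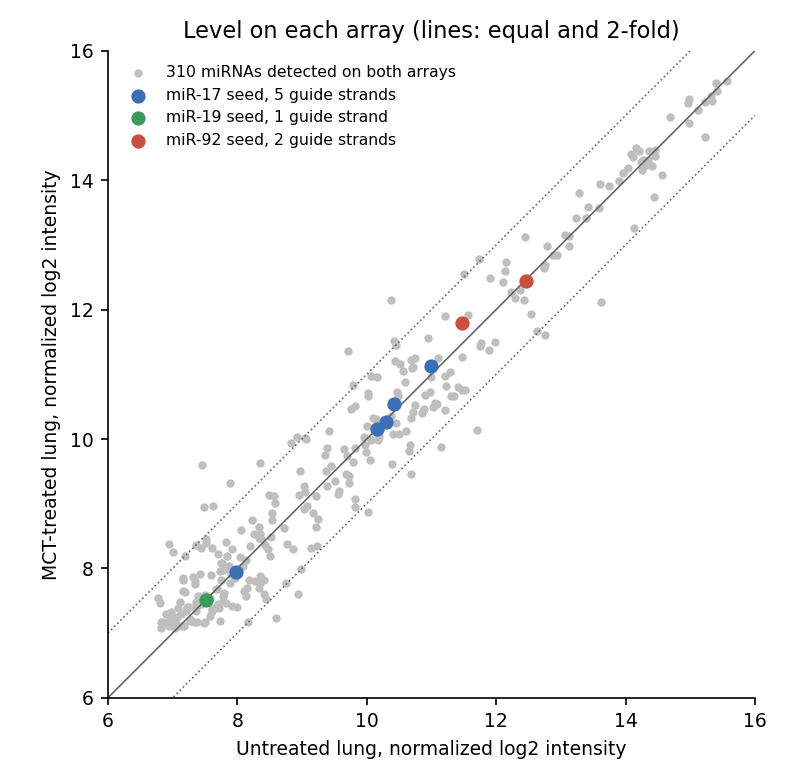
Normalized log2 intensity in MCT-treated (y axis) against untreated lung (x axis) for the 310 miRNAs detected on both arrays (grey), with the 8 detected guide strands coloured by seed. The guide strands lie along the line of equal level, and miR-92a-3p, at 11.47 and 11.79, lies farthest from it among them.

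A common shift of an array cancels when ratios are compared with each other. Within the seeds and clusters, the 8 guide strands with miR-106a-5p and miR-92b-3p gave 25 pairs, all of which were compared. The difference of the log2 ratios exceeded 2 of its standard deviations in 7 pairs, of which 5 kept their sign in all 17 alternative settings. Several of the 7 share a miRNA, so they are not separate results. The share of such pairs among all detected miRNAs was not computed. The 7 of 25 is therefore not shown to be particular to these seeds and clusters. These settings are not separate checks of a difference. No normalization, 5S scaling and the 3 centrings give the same differences, and settings that change only the detection rule leave them as reported. The errors cover the spots of these arrays only. Within the miR-92 seed, miR-92a-3p lay above miR-25-3p by 0.34 ± 0.067, and by 0.10 with the authors' values. miR-92b-3p lay above miR-25-3p by 0.52 ± 0.065 and above miR-92a-3p by 0.18 ± 0.048, but with the authors' values it lay under them, with differences of -0.21 and -0.31.

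Guide strands of the same cluster also had unequal ratios on these arrays. In miR-17-92, where 4 of 6 were detected with a median log2 ratio of 0.060, miR-92a-3p lay above miR-17-5p by 0.20 ± 0.058 and above miR-20a-5p by 0.36 ± 0.080. Its lead over miR-19b-3p, 0.32 ± 0.19, was under 2 standard deviations, as was that of miR-17-5p over miR-20a-5p, 0.17 ± 0.085. Since miR-92a-3p is also cut from miR-106a-363, the locus behind its ratio cannot be told apart. In miR-106b-25 all 3 guide strands were detected with a median of -0.0023, and no pair differed by 2 standard deviations, the largest difference being that of miR-93-5p over miR-25-3p, 0.17 ± 0.14.

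In miR-106a-363, the guide strand of the first hairpin, miR-106a-5p, differs from miR-17-5p by a single base. miR-106a-5p read 245, 255 and 282 without MCT and 844, 846 and 856 with it. Its log2 level was 8.54 ± 0.12 without and 8.86 ± 0.014 with MCT, a log2 ratio of 0.31 ± 0.12 with spots that did not overlap. It lay above its neighbour miR-20b-5p by 0.34 ± 0.25 and above miR-17-5p by 0.19 ± 0.13, both under 2 standard deviations, and above miR-20a-5p by 0.36 ± 0.14 and miR-106b-5p by 0.32 ± 0.15. These leads of miR-106a-5p kept their sign in all 17 alternatives, which are not separate checks of a difference. Neither the opposite arm miR-106a-3p nor any arm of miR-18b and miR-363, also of this cluster and not among the 10, was detected on both arrays. miR-363-5p alone of these exceeded the empty spots, in untreated lung, with 123, 128 and 128, and read 249, 230 and 231 on the MCT array, under its limit.

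**Figure D4:**
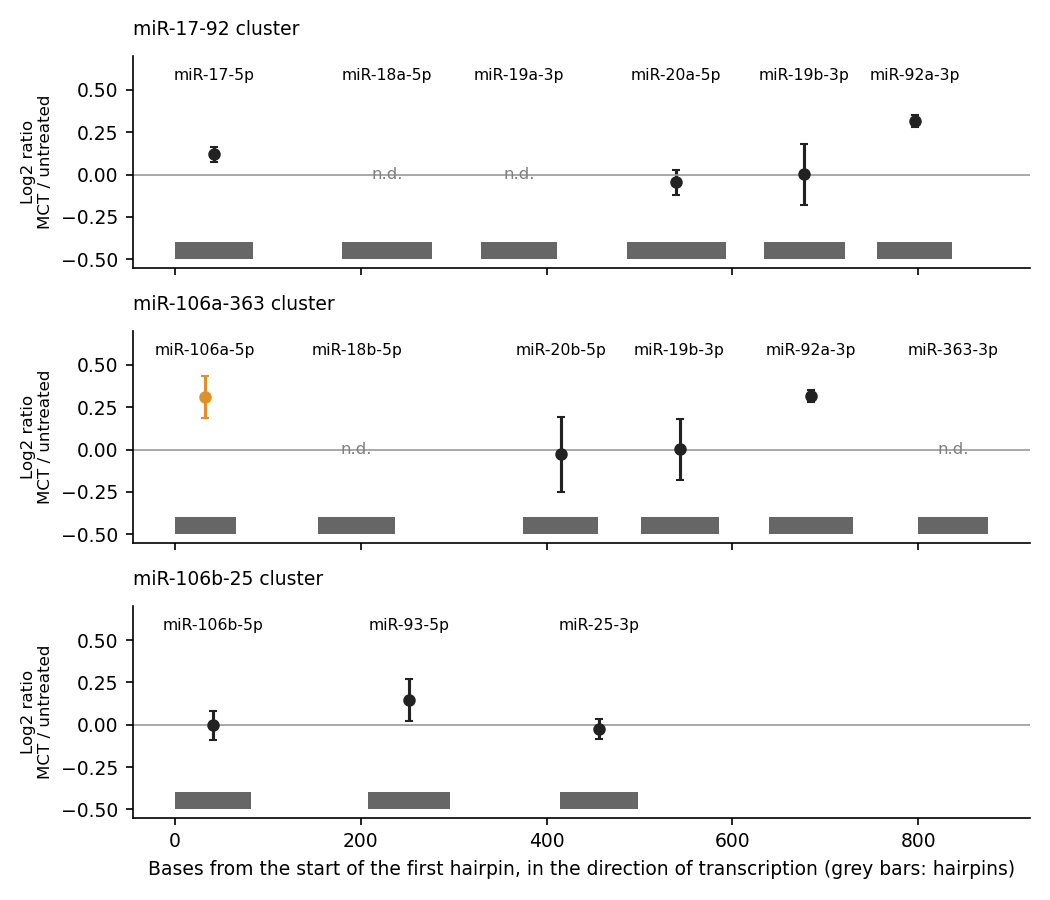
Log2 ratio of MCT over untreated lung (y axis, with SD over spots) for the guide strand of each hairpin, placed by its distance in bases from the first hairpin of its cluster in the direction of transcription (x axis). Orange marks miR-106a-5p, which is not among the 10, n.d. marks miRNAs not detected on both arrays, and miR-19b-3p and miR-92a-3p appear in both clusters that encode them, with the same value.

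The opposite arms of the hairpins, which are mostly degraded after processing, were near background. Of 12 listed, 1 was detected, miR-17-3p, with 162, 164 and 169 in untreated and 374, 364 and 359 in MCT-treated lung. Its log2 ratio was -0.044 ± 0.081 with overlapping spots. The other 11 opposite arms were not detected on either array. Of 8 embryonic miRNAs of the miR-290 and miR-302 clusters, which share the core of the miR-17 seed and mark pluripotent cells, 0 were detected on either array, with spots of 88.9 to 115 in untreated and 195 to 251 in MCT-treated lung. None of the 4 relatives detected on either array was 2-fold higher or lower.

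The order of the probes on each array, which a common factor leaves as it is, moved little for the guide strands. Among 1141 probes ranked by scanner intensity, miR-92a-3p went from rank 73 in untreated to 66 in MCT-treated lung, miR-17-5p from 116 to 107 and miR-93-5p from 89 to 83. miR-25-3p had ranks of 54 and 56, miR-20b-5p of 226 and 225 and miR-19b-3p of 265 and 261. miR-20a-5p kept rank 122 and miR-106b-5p rank 127. The rank of all 8 detected guide strands moved by at most 9 places, and the median move over the 310 miRNAs detected on both arrays was 16 places. The 310 were not matched to the guide strands for intensity, so the smaller move is not shown to be particular to them.

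The authors' processed values of the same arrays gave the opposite direction for 2 of the 5 guide strands with the miR-17 seed, miR-17-5p and miR-93-5p. They were 1429 in untreated and 1238 in MCT-treated lung for miR-17-5p, 1307 and 1036 for miR-20a-5p and 1133 and 967 for miR-106b-5p, all lower in MCT-treated lung. miR-93-5p had 2076 and 2039, and miR-20b-5p 162 and 161, nearly equal. The relative miR-106a-5p was higher in MCT-treated lung, with 249 and 419. The miR-92 seed was higher in MCT-treated lung, with 2664 and 3817 for miR-92a-3p and 4787 and 6365 for miR-25-3p. On the scale of log2(value + 50) the ratios were -0.20 for miR-17-5p, -0.32 for miR-20a-5p, -0.22 for miR-106b-5p and 0.51 for miR-92a-3p, when the median of all detected miRNAs was -0.11. These values have no spots to give an error.

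**Figure D5:**
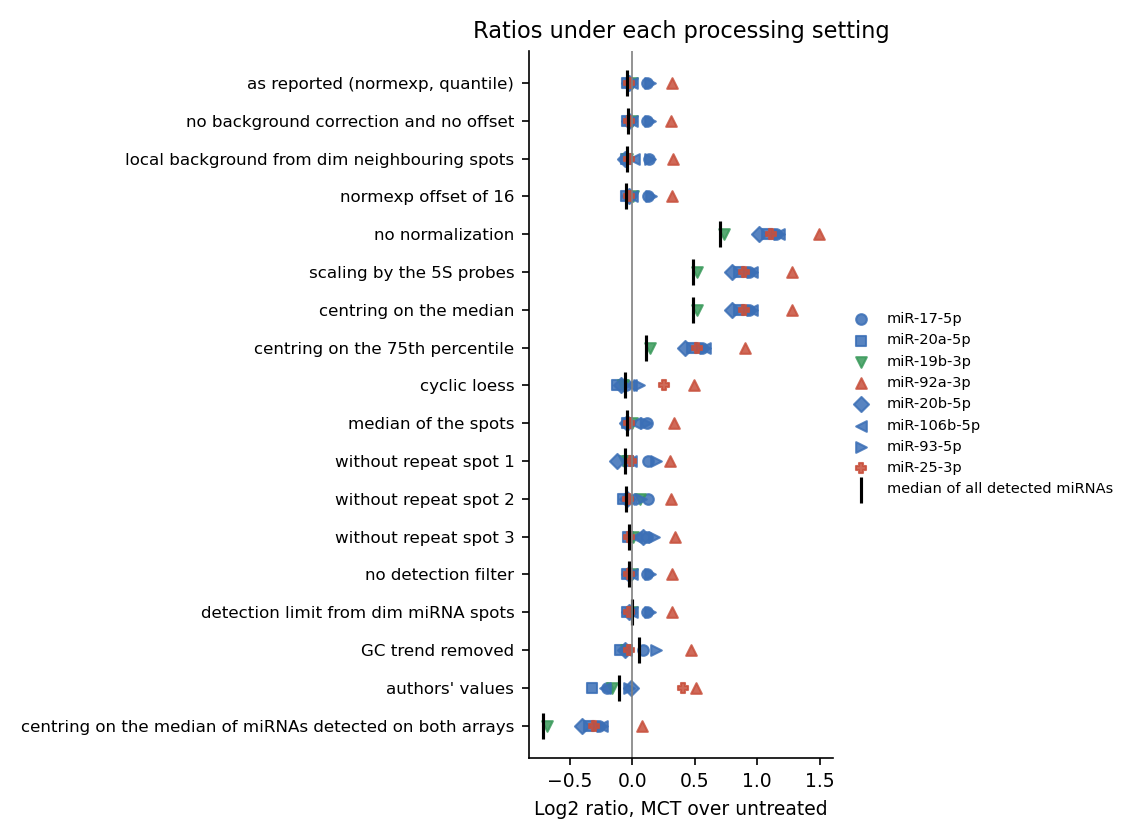
Log2 ratio of MCT over untreated lung (x axis) of the 8 detected guide strands under each processing setting (rows), coloured by seed (blue miR-17, green miR-19, red miR-92), with the median of all detected miRNAs as a black tick. The settings with no normalization, 5S scaling or centring differ from each other by a common shift of all points, and miR-92a-3p is the rightmost point in each row.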

How the data were processed

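The deposited scanner tables give a linear intensity for every spot, the median of its pixels per the file headers, with no background subtracted. The labels' protocols describe 2 µg of RNA per sample, tailed with poly(A), ligated to a tag, hybridised on a microfluidic chip and stained with Cy3. The authors' processed intensity table has 1189 probes with column medians of 7.55 (untreated) and 14.4 (MCT). It is linear and reaches down to 0 for dim probes. How it was centred and scaled is not stated in the labels used here, and its Spearman's rho with the scanner values was 0.976 and 0.964.

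Spots were corrected with normexp (offset of 50) in limma 3.58.1 under R 4.3.3. Control spots were then removed, and log2 values were quantile normalized between the arrays and averaged over the 3 spots. A call needed detection on either array, a log2 ratio of at least 1 in size and no overlap of spots. Other steps used Python 3.11.15 with pandas 2.3.3 and statsmodels 0.14.6. The 17 alternatives changed the background, offset, scaling, spots used, detection limit or GC trend, or took the authors' values. The steps were run on simulated arrays with known changes and a common factor between the arrays. The simulated arrays had no GC trend, and their dim miRNA spots lay around the level of the empty spots. A GC trend, and miRNA spots under the empty spots as on the MCT array, were therefore not covered. The members, lists, pairs and alternatives were chosen with earlier results of these data known. All members and all detected relatives were named, and the 3 miRNAs outside the lists with ratios closest to the members' median. Precision is limited by the design of 1 array per group.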

Additional observations from a re-analysis of the deposited data

How the results depend on the processing

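Ratios depended on the scaling between the arrays more than on any other choice tried. The median log2 ratio of all detected miRNAs moved by 0.75 without normalization, 0.53 when scaled by the 5S probes or centred on the median, 0.15 when centred on the 75th percentile and -0.67 when centred on the median of the miRNAs detected on both arrays, which was added after the data were seen. Without normalization 7 guide strands were past 2-fold, all higher, beside 142 higher and 0 lower of all detected miRNAs. With 5S scaling and with centring on the median, 1 was (miR-92a-3p), beside 97 higher and 0 lower. Under the other settings the counts were 0 in both directions.

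The medians without normalization were 1.13 for all 8 detected guide strands, 1.15 for the miR-17 seed, 0.74 for miR-19, 1.31 for miR-92, 1.11 for miR-17-92, 1.02 for miR-106a-363 and 1.18 for miR-106b-25. In the same order they were 0.91, 0.93, 0.52, 1.09, 0.89, 0.80 and 0.96 with 5S scaling, and 0.92, 0.93, 0.52, 1.09, 0.90, 0.80 and 0.96 when centred on the median. Centred on the miRNAs detected on both arrays they were -0.29, -0.27, -0.68, -0.12, -0.31, -0.40 and -0.24. At the 75th percentile they were 0.54 for all 8, 0.56 for miR-17, 0.71 for miR-92, 0.52 for miR-17-92, 0.42 for miR-106a-363 and 0.58 for miR-106b-25. The authors' values gave -0.094 for all 8, -0.20 for miR-17, 0.46 for miR-92 and -0.18 for miR-17-92. Cyclic loess gave 0.37 for miR-92 and -0.063 for miR-17-92, removal of the GC trend 0.22 for miR-92, leaving out repeat spot 3 0.084 for miR-17, and the detection limit from dim miRNA spots, which adds miR-18a-5p, 0.12 for miR-17-92. Apart from that limit the cause was not tested. The counts of all miRNAs past 2-fold were 17 higher and 9 lower as reported, 37 and 36 with a local background, 23 and 19 with an offset of 16, 49 and 8 at the 75th percentile, 6 and 85 when centred on the miRNAs detected on both arrays, 14 and 4 with the GC trend removed and 20 and 16 with the authors' values. The counts with the authors' values rest on fold alone, because those values have no spots to compare for overlap. No paired analysis was possible because each group has 1 array. miRNAs near the empty spots, miR-18a-5p and miR-19a-3p among them, have no measurable ratio here.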

Other observations

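The miRNAs outside the lists whose log2 ratio lay closest to the median of the guide strands, among 290 detected on both arrays, were miR-23a-5p at -0.0020 ± 0.20, miR-486-3p at 0.00080 ± 0.084 and miR-24-3p at -0.0075 ± 0.038, a likeness that rests on 2 arrays. The opposite arm miR-93-3p had a single untreated spot of 161 beside spots of 89.9 and 88.7, against 246, 250 and 252 on the MCT array, so that its untreated mean of 113 rests on that spot.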
